A study of Mus musculus with 20 samples.

Results

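The messenger RNA of mouse pluripotent cells was compared between the 4th day after leaving 2i medium and day 0, with a female and a male line pooled. All libraries labelled day 4 (4 libraries) and all labelled day 0 (4 libraries) were used, which makes 8 of the 20 libraries of the series; no expression value entered this choice. The 4 day 4 libraries came from cells that had spent 4 days on fibronectin in N2B27 medium with activin A and Fgf2 and had, per the labels, grown to a full well that was due for its first split. The 4 day 0 libraries came from the same lines in 2i medium. Each day was sampled in PGK, the female line, and in E14, the male line, in 2 experiments named diff2 and diff3. Neither a genotype nor a transgene is given in the sources used here, and each sex is represented by 1 line, so an effect of sex and one of line cannot be told apart. Throughout, values of single libraries follow the order PGK diff2, PGK diff3, E14 diff2 and E14 diff3, and a level is in CPM, the counts of a gene scaled so that every library has the same total.

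Mouse embryonic stem cells can be held in the naive state of the preimplantation epiblast. The inhibitors of 2i medium block MEK, the kinase above ERK, and GSK3, which marks beta-catenin for degradation, and a circuit of transcription factors that includes Klf4, Esrrb and Tfcp2l1 keeps the state going. When the inhibitors are withdrawn and activin A and Fgf2 are given, ERK and Smad2/3 signalling become active and the cells pass towards the state of the post-implantation epiblast, in which the genome is methylated de novo and the cells form an epithelium. Epiblast stem cells are the stable culture form of that state, and a 4-day culture lies on the way to it.

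Depth was uneven. Of the 8 libraries the E14 diff3 ones were the shallow ones, with 2020254 counts at day 4 and 3376500 counts at day 0, while the other 6 held 12318878 to 21897124 counts. After thinning every library to the smallest total, the E14 diff3 library of day 0 had 10152 genes with a count, against 12837 to 14505 in the day 4 libraries and 13797 to 13924 in the other day 0 libraries. It stands apart, and results are therefore also given without it. Of the 163 named genes that were called, 7 lost the call without it (Cyr61, Eif2c2, Hsp90aa1, L1td1, Serpinh1, Wwtr1 and Zfp352). The labels of both diff3 libraries of day 0 name a cell type in conversion although their titles name 2i and day 0; their Klf4 and Tfcp2l1 levels, given next, stood beside those of the diff2 libraries of day 0 and apart from every day 4 library. Whether 2 libraries of a line and day came from separate thaws is not stated, so that the p-values measure the spread between these samples.

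The naive markers were far lower at day 4 and the post-implantation markers far higher. Klf4 (chr4:55527143-55532466, GRCm38), a Krüppel-like factor of the naive circuit, had 6.03, 5.71, 1.84 and 3.46 CPM at day 4, against 282, 423, 457 and 550.3 CPM at day 0. Tfcp2l1 (chr1:118627945-118685168), a grainyhead-family factor that depends on LIF and Wnt signals, had 55.6, 31.6, 8.32 and 12.4 CPM at day 4, against 1573, 1636, 1779.6 and 1861 CPM at day 0. In both genes every day 4 library lay far below every day 0 library, and E14 ended lower than PGK. Fgf5 (chr5:98254184-98277030), an FGF ligand of the post-implantation epiblast, had 133, 203, 135 and 95.5 CPM at day 4, against 0.325, 0.0935, 1.34 and 0 CPM at day 0. Dnmt3b (chr2:153649450-153687730), a methyltransferase that sets new DNA methylation, had 1471, 819.6, 2222 and 1092 CPM at day 4, against 45.6, 41.4, 27.7 and 25.8 CPM at day 0. Here every day 4 library lay above every day 0 library, with the diff2 library of each line above its diff3 library for Dnmt3b. On the log2 scale Klf4 changed by −6.67 ± 0.45 (SE), Tfcp2l1 by −6.28 ± 0.51, Fgf5 by 8.22 ± 0.78 and Dnmt3b by 5.33 ± 0.39, with adjusted p = 2.46e-05, 4.38e-05, 0.000123 and 3e-05 in edgeR's quasi-likelihood test. Without the E14 diff3 library of day 0 the changes were −6.55, −6.15, 8.003 and 5.13 for the same genes. In RNA from a whole culture, fewer cells of a type and less RNA per cell cannot be told apart.

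The promoters of these 4 markers are shown because the change of state is read from them. Each is the 250 bases before the RefSeq transcript start (GRCm38.p6), written 5′ to 3′ on the strand of the gene, and capitals mark GC boxes (GGGCGG), the TATA box (TATAAA) and the E-box (CACGTG) on either strand.
Klf4: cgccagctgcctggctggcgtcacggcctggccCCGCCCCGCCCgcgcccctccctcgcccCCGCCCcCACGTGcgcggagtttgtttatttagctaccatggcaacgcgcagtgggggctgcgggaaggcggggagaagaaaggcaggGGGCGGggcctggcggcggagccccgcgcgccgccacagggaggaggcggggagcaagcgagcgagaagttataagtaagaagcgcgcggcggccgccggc
Tfcp2l1: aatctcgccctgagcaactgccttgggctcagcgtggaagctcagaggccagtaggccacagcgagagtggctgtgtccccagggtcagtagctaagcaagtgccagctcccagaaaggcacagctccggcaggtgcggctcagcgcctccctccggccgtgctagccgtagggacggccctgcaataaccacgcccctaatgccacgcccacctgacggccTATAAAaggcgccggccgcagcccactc
Fgf5: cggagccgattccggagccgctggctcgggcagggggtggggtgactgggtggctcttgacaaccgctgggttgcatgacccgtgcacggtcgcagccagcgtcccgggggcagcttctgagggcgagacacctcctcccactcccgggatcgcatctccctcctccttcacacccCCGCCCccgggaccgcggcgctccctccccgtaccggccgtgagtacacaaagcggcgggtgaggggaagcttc
Dnmt3b: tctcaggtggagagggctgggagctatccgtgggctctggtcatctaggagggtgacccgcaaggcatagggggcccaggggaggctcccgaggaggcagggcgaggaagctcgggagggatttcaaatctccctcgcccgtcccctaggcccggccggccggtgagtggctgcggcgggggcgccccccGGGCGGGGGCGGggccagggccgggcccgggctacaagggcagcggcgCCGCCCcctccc
The windows are chr4:55532476-55532725 on the minus strand for Klf4 and, on the plus strand, chr1:118627695-118627944 for Tfcp2l1, chr5:98253934-98254183 for Fgf5 and chr2:153649199-153649448 for Dnmt3b. The Klf4 window held 32 CpG dinucleotides, 4 GC boxes, of which a pair overlap, and 1 E-box. The Tfcp2l1 window held 16 CpG dinucleotides and 1 TATA box. The Fgf5 window held 24 CpG dinucleotides and 1 GC box, and the Dnmt3b window 21 CpG dinucleotides and 3 GC boxes. No match to a CCAAT box (CCAAT), a cAMP response element (TGACGTCA), an ESRRB motif (TCAAGGTCA), a STAT motif (TTCCNGGAA), an ETS motif (CCGGAAGT) or an octamer (ATGCAAAT) lay in any of the 4 windows, searched on both strands.

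Across genes with a promoter in the RefSeq table, 11080 of 14226 tested, the same windows could be set side by side. A GC box was present in 61.9% of the genes higher at day 4, 58.9% of those lower at day 4, 59.2% of those tested and not called, and 32.9% of all 27025 promoters. The median number of CpG dinucleotides was 16 in the 805 promoters of genes higher at day 4, 13 in the 817 of genes lower at day 4, 16 in the 9458 of genes not called and 6 over all. The ESRRB motif was found in 0% of the genes higher at day 4, 0.612% of those lower, 0.222% of those not called and 0.366% of all promoters. The ETS motif was found in 2.11% of the genes higher, 2.69% of those lower, 6.3% of those not called and 2.93% of all promoters. TATA boxes stood in 6.83%, 8.2%, 6.06% and 13% of the same 4 sets, CCAAT boxes in 31.8%, 33%, 37.7% and 34.5%, and E-boxes in 7.33%, 9.55%, 8.42% and 6.05%. The cAMP response element, the STAT motif and the octamer were each found in under 3% of every set. These shares describe letters in a fixed window; no difference between them was tested.

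**Figure D1:**
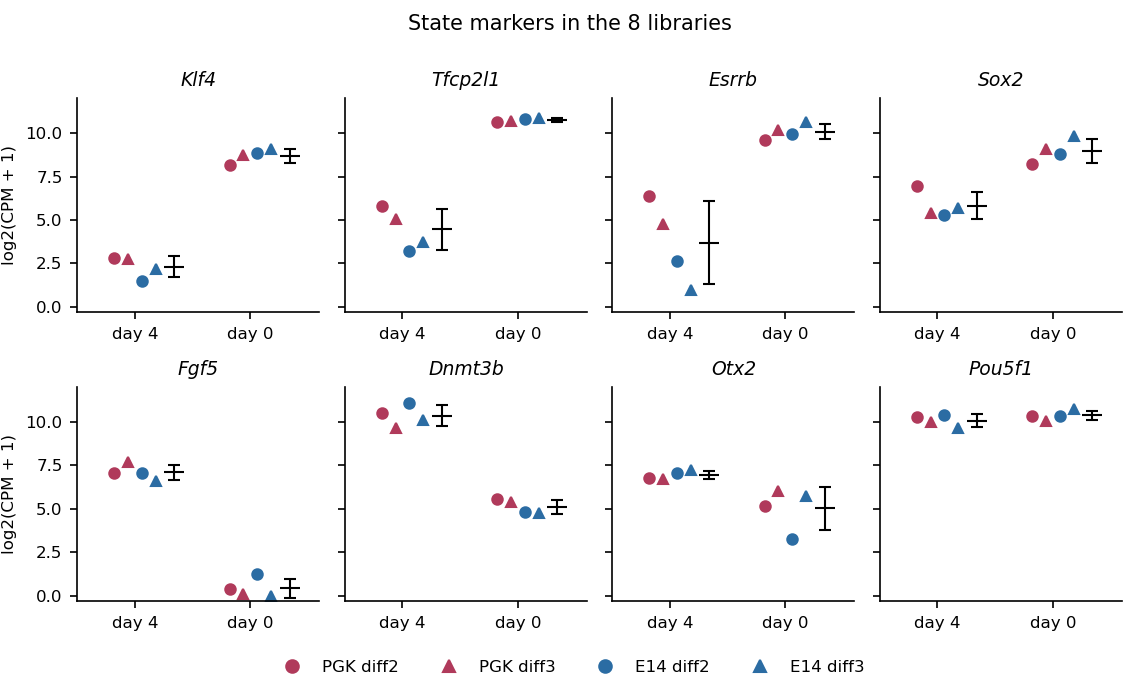
Levels of 8 pluripotency genes in each library, as log2(CPM + 1), with the 4 day 4 libraries left of the 4 day 0 libraries in each panel; black marks give the mean ± SD of the 4 libraries. Klf4, Tfcp2l1, Esrrb and Sox2 are lower in all 4 day 4 libraries, Fgf5, Dnmt3b and Otx2 are higher in all 4, and the Pou5f1 values of both days overlap.

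Of 14226 genes tested, 2169 (15.2%) differed between day 4 and day 0 with line as a block, 1100 (7.73%) higher at day 4 and 1069 (7.51%) lower. By their estimates 2043 of the 2169 changed by more than 2-fold, 537 by more than 16-fold upward and 333 by more than 16-fold downward. A test against a 2-fold change called 982. The 4 day 4 values lay entirely above the 4 day 0 values in 1919 genes (13.5% of those tested) and entirely below them in 1351 (9.50%). A gene at 0 in a day 0 library cannot lie entirely below, and a gene at 0 in a day 4 library cannot lie entirely above. Of the genes tested, 3892 were at 0 in E14 diff3 of day 0 and 1791 in E14 diff3 of day 4, so these counts are not comparable between directions. When the E14 diff3 library of day 0 was left out, 15026 genes were tested, of which 1350 (8.98%) were higher at day 4 and 1563 (10.4%) lower. Leaving out 1 library in turn gave 1068 calls without the E14 diff2 library of day 4 and 1124 without the PGK diff3 library of day 4. It gave 1232 without PGK diff3 and 1344 without PGK diff2 of day 0, 1379 without E14 diff2 of day 0 and 1434 without E14 diff3 of day 4. No call shared with such a setting changed its direction.

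Most pooled calls changed in the same direction in both lines, which their choice by the pooled fit on the same libraries partly fixed. Across genes the log2 fold changes of PGK and E14 correlated with r = 0.73. Of the 2169 calls, 1969 moved the same way in all 4 pairs of day 4 and day 0 (each line in each experiment), 1040 upward (7.31% of the genes tested) and 929 downward (6.53%). With a library left out, agreement was asked only of the pairs that remained, a looser rule. The count shared by both lines was then 1051 without E14 diff2 of day 4 and 2886 without E14 diff3 of day 0. Tested within each line, 453 genes (3.18%) were called in PGK and 827 (5.81%) in E14. Of the E14 calls 337 were higher at day 4 and 490 lower, while limma-voom gave 607 higher and 418 lower. Of 344 genes called in both, 157 were higher at day 4 and 186 lower in both lines, and 1 went in opposite directions. These counts moved with single libraries, for PGK between 113 without PGK diff3 of day 0 and 1295 without E14 diff3 of day 0, and for E14 between 243 without E14 diff3 of day 4 and 3517 without E14 diff2 of day 0. The test of the difference itself, the change in PGK minus the change in E14, called 0 genes (0%) in edgeR, with 477 at an unadjusted p under 0.05, while DESeq2 called 52 and limma-voom 0. That count depended on single libraries: it was 959 without the E14 diff2 library of day 0, a fit in which the shallow E14 diff3 library is the only one of its line and day and is assumed to vary like the other groups. It was 9 without PGK diff3 of day 4 and 4 without PGK diff2 of day 4.

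**Figure D2:**
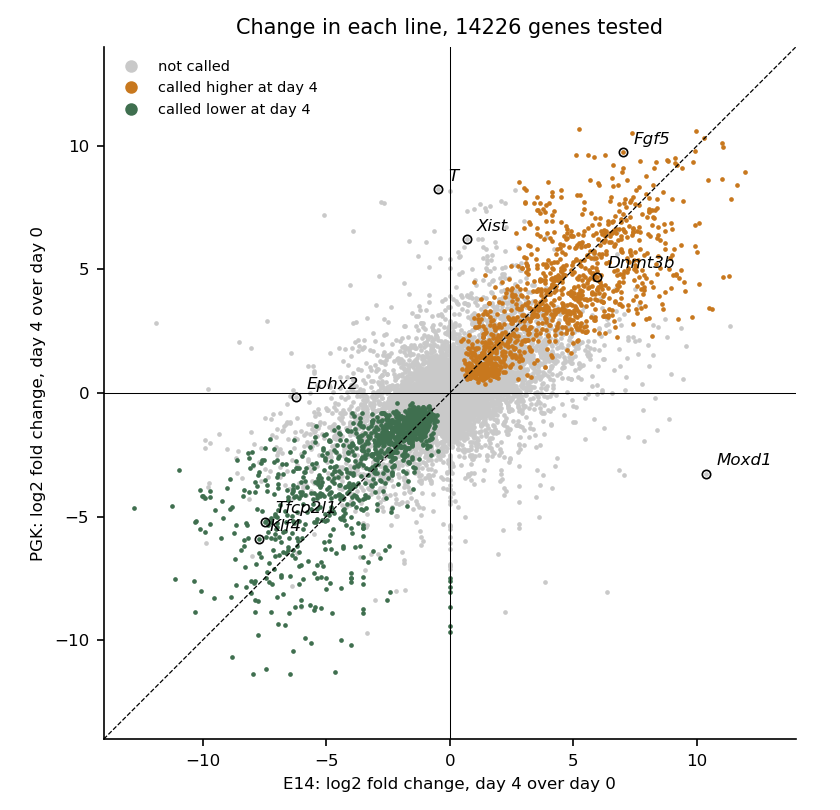
Log2 fold change of day 4 against day 0 in E14 (horizontal axis) and in PGK (vertical axis), 1 point per gene tested, with genes called in the pooled test coloured. Most called genes lie along the diagonal, among them Klf4, Tfcp2l1, Fgf5 and Dnmt3b, whereas Moxd1, T, Ephx2 and Xist lie off it. Genes with no E14 counts lie at 0 on the horizontal axis.

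The genes with the smallest p for the line difference were named with their values, none having passed. Moxd1, related to copper monooxygenases, had 5.12, 8.45, 12.6 and 13.9 CPM at day 4, against 49.1, 81.6, 0 and 0 CPM at day 0 (adjusted p = 0.103 for the difference between lines); it is the 1 gene called in both lines in opposite directions. Ephx2, soluble epoxide hydrolase, had 79.5, 40.2, 4.197 and 1.98 CPM at day 4, against 33.04, 99.8, 254 and 260.3 CPM at day 0 (change in PGK minus change in E14 6.06 ± 0.85 on the log2 scale, adjusted p = 0.166). At day 4 Moxd1 stood lower than at day 0 in PGK and above its 0 counts of day 0 in E14, while Ephx2 stood lower in E14 and its PGK values overlapped. Tfap2c, a factor of trophoblast, germ cells and naive cells, had 15.8, 16.99, 0.515 and 0 CPM at day 4, against 90.5, 83.9, 83.4 and 164 CPM at day 0 (difference 5.77 ± 0.88, adjusted p = 0.211). Its pooled fall was not called with the experiment within each line as a block (adjusted p = 0.0565). T, which encodes the primitive streak factor Brachyury, had 28.2, 474, 3.53 and 4.95 CPM at day 4, against 0.487, 1.12, 6.19 and 5.33 CPM at day 0, with PGK diff3 of day 4 far above all other libraries (adjusted p = 0.595 for the difference). Klf5, a naive factor, and Ifitm1, an interferon-induced membrane protein gene, completed the 6, with adjusted p = 0.598 and 0.5896 for the difference. Xist, the noncoding RNA of X inactivation, is named apart from these 6, with 1323, 1946, 17.5 and 10.4 CPM at day 4, against 12.5, 31.4, 16.1 and 0.592 CPM at day 0, high in both female libraries of day 4 and in no other (adjusted p = 0.637 for the difference). Pooled, it was not called by edgeR (adjusted p = 0.107) and was higher in DESeq2 (adjusted p = 0.0292), in limma-voom (adjusted p = 0.000168) and in edgeR without E14 diff2 of day 0 (adjusted p = 0.000123). Over the 572 X-linked genes tested the median log2 fold change was −0.47 in PGK and 0.37 in E14, beside 0.04 in PGK and 0.11 in E14 over 13574 autosomal genes.

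Nearly the whole naive network was lower at day 4. Of the 25 genes of the naive list that were tested, 23 fell and none rose, beside 7.51% lower over all genes. The median log2 fold change was −4.68, beside 0.07 over all genes tested. This list and all others were drawn up with earlier results of these data known. Leaving out each library in turn, a setting added after the data had been seen, gave 21 to 23 genes of the list called lower. Esrrb, an orphan nuclear receptor that binds many naive enhancers, had 82.6, 26.6, 5.23 and 0.99 CPM at day 4, against 786, 1139.5, 966 and 1603 CPM at day 0. Tbx3, a T-box factor, had 5.54, 3.65, 1.25 and 0.495 CPM at day 4, against 194, 333, 243 and 377 CPM at day 0. Nanog, the homeobox factor at the centre of the network, had 161, 97.1, 87.5 and 76.7 CPM at day 4, against 927, 935, 639 and 622 CPM at day 0. In all 3 genes no day 4 library reached a day 0 library, though Nanog kept more of its day 0 level in both lines, while Esrrb and Tbx3 were down to a few CPM or less in E14. The log2 fold change was −6.08 ± 0.95 for Esrrb (adjusted p = 0.00235), −6.76 ± 0.55 for Tbx3 (adjusted p = 4.38e-05) and −2.89 ± 0.22 for Nanog (adjusted p = 3.27e-05). Jam2, a junctional adhesion molecule, averaged 1.76 ± 1.69 CPM at day 4, against 528 ± 183 CPM at day 0 (SD, n = 4 each), and Spic, an ETS-family factor, 0.189 ± 0.208 CPM at day 4, against 59.8 ± 37.4 CPM at day 0.

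The core factors shared by naive and primed cells did not move together. Pou5f1, which encodes Oct4, had 1270.3, 1016, 1348 and 792 CPM at day 4, against 1302, 1074, 1299 and 1705 CPM at day 0, and the ranges overlapped (log2 fold change −0.26 ± 0.23, adjusted p = 0.498). Sox2, its partner on DNA, had 122, 41.1, 37.5 and 50.5 CPM at day 4, against 293, 537, 443 and 912 CPM at day 0, a fall of every day 4 library below every day 0 library (log2 fold change −3.13 ± 0.48, adjusted p = 0.002104). Utf1, a chromatin-bound pluripotency factor, had 328, 128, 367 and 238 CPM at day 4, against 36.04, 15.01, 30.1 and 30.5 CPM at day 0, with no overlap (log2 fold change 3.25 ± 0.38, adjusted p = 0.000445). Of the 14 core genes tested, 2 rose (Utf1 and L1td1) and 2 fell (Sox2 and Dppa5a), beside 7.73% higher and 7.51% lower over all genes. The call of L1td1 was lost with the experiment within each line as a block (adjusted p = 0.0579) and in 6 of the 8 leave-one-out fits, those without any PGK library, E14 diff3 of day 0 or E14 diff2 of day 4 (adjusted p up to 0.145).

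Post-implantation epiblast genes rose: 17 of 24 tested were higher and 0 lower, beside 7.73% higher over all genes. Their median log2 fold change was 3.60. The count was 18 without the E14 diff3 library of day 0, and at its lowest 13, without the PGK diff3 library of day 4. Pou3f1, the POU factor also called Oct6, had 137, 70.1, 128 and 56.9 CPM at day 4, against 1.46, 0.234, 0.9697 and 0 CPM at day 0. Sox11, a SoxC factor, had 76.3, 139, 95.9 and 159 CPM at day 4, against 1.54, 0.608, 0.671 and 0.888 CPM at day 0. Pim2, a serine/threonine kinase, had 1010.5, 952, 807 and 329 CPM at day 4, against 37.4, 17.5, 9.32 and 20.4 CPM at day 0. Pou3f1 and Sox11 were at very low levels in 2i, and Pim2 was at 9.32 to 37.4 CPM. All 3 genes separated without overlap between the days. The log2 fold changes were 7.06 ± 0.74 for Pou3f1, 6.999 ± 0.49 for Sox11 and 5.23 ± 0.42 for Pim2 (adjusted p = 0.000226, 2.9e-05 and 4.38e-05). Otx2, a homeobox factor that directs Oct4 to new enhancers on exit from the naive state, had 110.1, 105, 132 and 148 CPM at day 4, against 34.7, 63.1, 8.58 and 51.8 CPM at day 0. Its ranges did not overlap, but the test passed narrowly (log2 fold change 1.69 ± 0.50, adjusted p = 0.0455, 0.01196 to 0.1098 over the alternatives). The call was lost in 8 of the 15 alternatives, among them the fit with the experiment within each line as a block (adjusted p = 0.059) and those without PGK diff2 of day 0 or any 1 of the day 4 libraries (adjusted p = 0.0731 to 0.11).

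Signalling genes changed in part. The LIF receptor route feeds STAT3 and the naive factors. Of its 13 genes tested 6 fell and 0 rose (median log2 fold change −1.46), beside 7.51% lower over all genes. Without the E14 diff3 library of day 0, 7 fell and 1 (Ptpn11, named after its values were seen) rose, and the lowest count of falls was 4, without the E14 diff2 library of day 0. Lifr, the ligand-binding receptor subunit, had 24.6, 20.9, 13.99 and 18.3 CPM at day 4, against 63.8, 88.8, 96.5 and 226 CPM at day 0. Il6st, the shared subunit gp130, had 42.5, 43.8, 31.4 and 44.5 CPM at day 4, against 75.98, 124, 214 and 168 CPM at day 0. Stat3, the transcription factor that both subunits activate, had 37.1, 69.2, 22.02 and 68.3 CPM at day 4, against 222, 165, 211 and 346 CPM at day 0. Socs3, the feedback inhibitor that STAT3 itself induces, had 2.81, 12.7, 5.08 and 21.3 CPM at day 4, against 252, 91.03, 117 and 259 CPM at day 0. Receptor, transducer and feedback target all lay lower in each day 4 library than in each day 0 library, with log2 fold changes of −2.51, −1.76, −2.24 and −4.20 in that order of naming (adjusted p = 0.00368, 0.005403, 0.00506 and 0.00216).

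Over all genes 7.73% were higher. Among targets and feedback inhibitors downstream of FGF and ERK, 10 of 25 were higher and 0 lower, with a median of 1.92. That count was 6 without the E14 diff2 library of day 0 and 6 without the PGK diff3 library of day 4. Dusp6, the phosphatase that switches ERK off, had 123, 246, 192 and 207 CPM at day 4, against 3.73, 2.197, 3.65 and 8.29 CPM at day 0. Spry4, a feedback inhibitor of receptor tyrosine kinases, had 34.8, 43.7, 24.4 and 15.3 CPM at day 4, against 4.46, 1.07, 0.224 and 0 CPM at day 0. Both were higher in every day 4 library (log2 fold change 5.57 ± 0.44, adjusted p = 3.83e-05, and 5.02 ± 0.92, adjusted p = 0.00543). Egr1, an immediate early zinc finger factor, averaged 70.1 ± 30.2 CPM at day 4, against 0.293 ± 0.216 CPM at day 0, and Myc, also a target of Wnt and LIF signals, 73.7 ± 31.1 CPM at day 4, against 1.47 ± 1.01 CPM at day 0. Among the ligands, Fgf8 averaged 13.96 ± 9.72 CPM at day 4, against 0.383 ± 0.468 CPM at day 0, and Fgf15 35.97 ± 14.6 CPM at day 4, against 0.648 ± 0.884 CPM at day 0. With Fgf5 these rose, as did Fgfbp1, a carrier named after its values were seen. Fgf4, a ligand that naive cells make, fell to 66.9 ± 59.3 CPM at day 4, against 310.0 ± 49.2 CPM at day 0 (adjusted p = 0.0124, or 0.0522 without both shallow libraries, the highest of the alternatives).

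Nodal and Wnt genes moved in fewer cases. Of 19 Nodal and activin pathway genes 3 rose and 0 fell, beside 7.73% higher and 7.51% lower over all genes, and 5 rose without the E14 diff3 library of day 0. Among the rises Lefty1, a secreted Nodal inhibitor, averaged 141.8 ± 56.5 CPM at day 4, against 6.53 ± 2.998 CPM at day 0, and Skil, a Smad co-repressor, 349 ± 104 CPM at day 4, against 74.1 ± 30.6 CPM at day 0. Lefty1 and Lefty2 are close copies between which counting could divide reads. Of 24 Wnt and beta-catenin genes 8 rose and 4 fell, the falls being Sfrp1 and, named after their values were seen, Fzd5, Cdx1 and Notum. The falls were 2 without either E14 library of day 4 and 2 with the experiment within each line as a block. Sfrp1, a secreted Wnt inhibitor, had 30.7, 29.04, 22.2 and 27.7 CPM at day 4, against 527, 577, 265 and 518 CPM at day 0 (log2 fold change −4.09 ± 0.28, adjusted p = 2.46e-05). Fzd7, a Wnt receptor, had 238, 147, 207 and 296 CPM at day 4, against 27.3, 9.96, 33.9 and 56.6 CPM at day 0 (log2 fold change 2.93 ± 0.40, adjusted p = 0.000946). The inhibitor was lower and the receptor higher in every day 4 library. Wnt8a had no more than 3 counts over the day 0 libraries and 31.4, 16.4, 1.47 and 0.99 CPM at day 4.

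**Figure D3:**
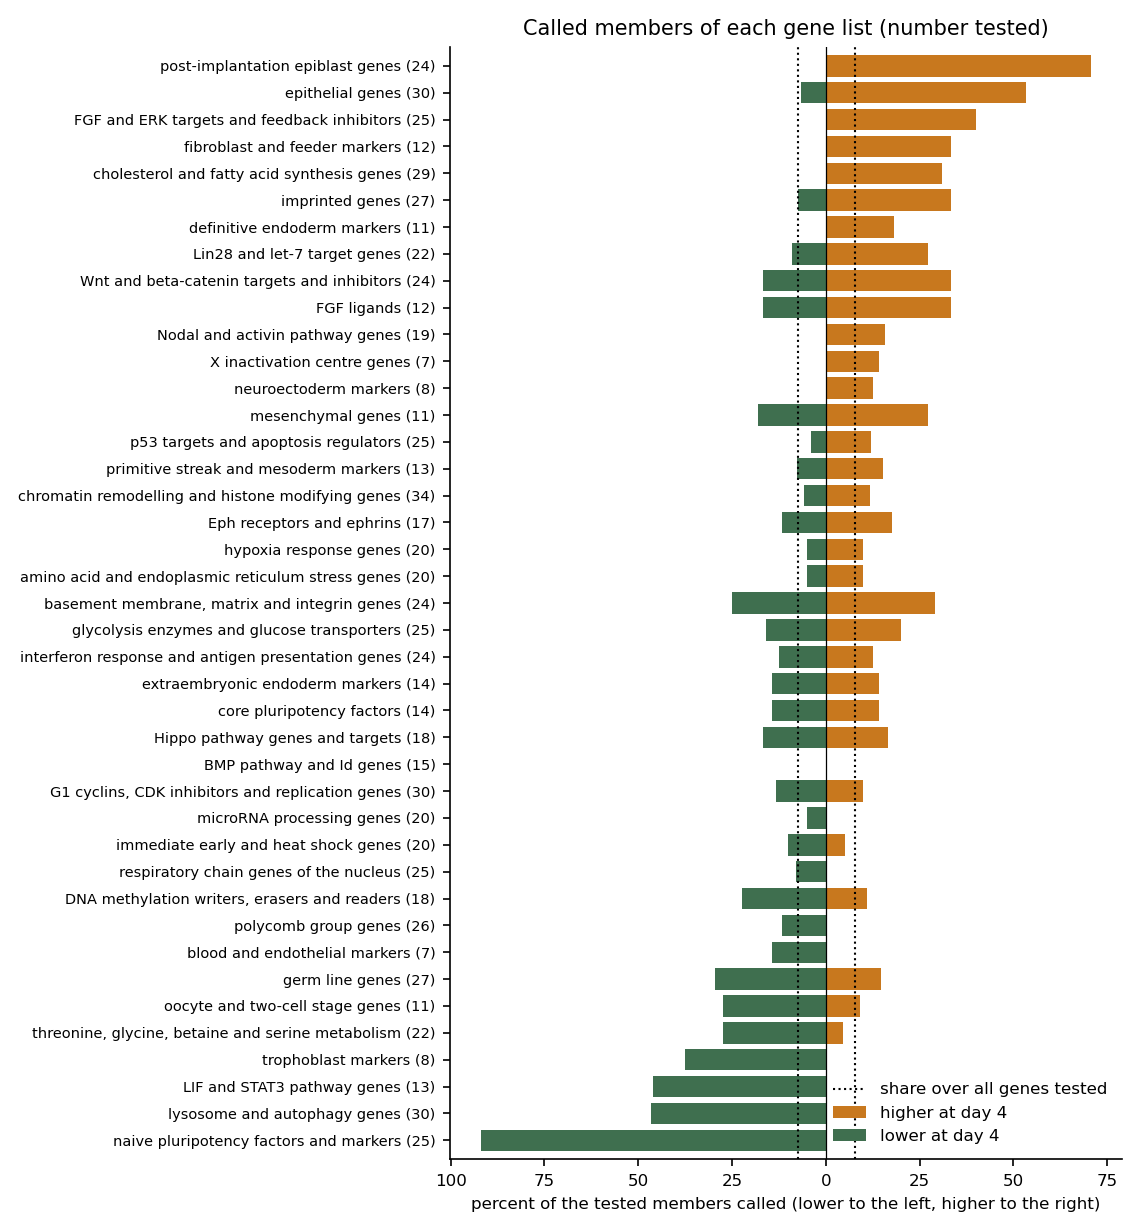
Percentage of tested genes called higher or lower at day 4 for each gene list, with dotted lines at the percentage over all genes tested, 7.73% higher and 7.51% lower. The naive (23 of 25) and lysosome (14 of 30) lists have the tallest bars of lower genes, and the post-implantation (17 of 24) and epithelial (16 of 30) lists the tallest of higher genes.

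A large part of the lysosomal genes fell. Of 30 lysosome and autophagy genes tested, 14 were lower at day 4 and 0 higher, beside 7.51% lower over all genes, and their median log2 fold change was −1.21. Without the E14 diff3 library of day 0, 15 fell, and the count stayed between 13 and 15 when each library was left out. Mitf, a basic helix-loop-helix factor of the MiT family that binds lysosomal gene promoters together with Tfeb and Tfe3, had 1.12, 2.65, 1.399 and 0.495 CPM at day 4, against 60.2, 115, 65.5 and 243 CPM at day 0. Ctsa, a serine carboxypeptidase that also protects lysosomal glycosidases, had 69.5, 47.04, 58.8 and 61.9 CPM at day 4, against 261, 195, 403 and 286 CPM at day 0. These fell without overlap, with log2 fold changes of −6.17 ± 0.64 for Mitf (adjusted p = 0.0002199) and −2.23 ± 0.26 for Ctsa (adjusted p = 0.000377). Npc2, which carries cholesterol out of the lysosome, had 158, 136, 139.6 and 155 CPM at day 4, against 430.1, 386, 578 and 634 CPM at day 0. Psap, the precursor of the saposins that help degrade sphingolipids, had 275, 202, 215 and 229.7 CPM at day 4, against 827, 936, 627 and 1256 CPM at day 0. Both again lay lower in each day 4 library, with log2 fold changes of −1.75 ± 0.21 and −1.98 ± 0.25 (adjusted p = 0.0004702 and 0.000655). Other members that fell, named here after their values were seen, included the cathepsins Ctsb, Ctsd and Ctsl, the hexosaminidase subunit gene Hexa, the membrane proteins Lamp1 and Lamp2, the granulin precursor Grn and the factor Tfeb. Tfeb had 5.54, 9.22, 2.28 and 6.43 CPM at day 4, against 62.9, 36.3, 53.4 and 64.6 CPM at day 0. Trpm1, a cation channel gene that MITF is known to activate in melanocytes, was among the largest falls of all genes, with 0.2104, 0.183, 0.147 and 0 CPM at day 4, against 71.7, 117, 232 and 118 CPM at day 0.

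Genes of cholesterol and fatty acid synthesis were higher in part. Of 29 tested, 9 were higher at day 4 and 0 lower, beside 7.73% higher over all genes, with a median log2 fold change of 0.77. The count was 7 without the E14 diff3 library of day 0 and 6 at the lowest, without E14 diff2 or PGK diff2 of day 4 or PGK diff3 of day 0. Hmgcs1, which makes the precursor of mevalonate, had 428, 753, 898 and 1148 CPM at day 4, against 262, 278, 483 and 473 CPM at day 0. Sqle, squalene epoxidase, had 402, 269, 374 and 373 CPM at day 4, against 129, 129, 176 and 68.1 CPM at day 0. Acaca, acetyl-CoA carboxylase, the committed step of fatty acid synthesis, had 92.2, 76.8, 95.3 and 84.2 CPM at day 4, against 34.01, 34.8, 29.1 and 14.5 CPM at day 0. Day 4 lay above day 0 without overlap for Sqle and Acaca, and for Hmgcs1 the ranges overlapped. The log2 fold changes were 1.12 ± 0.22 for Hmgcs1, 1.499 ± 0.29 for Sqle and 1.67 ± 0.32 for Acaca (adjusted p = 0.00824, 0.00798 and 0.00739). Named after its values were seen, Srebf2, the master regulator of these genes, had 473, 291, 526 and 377 CPM at day 4, against 534, 239, 497 and 345 CPM at day 0, which overlapped and missed the threshold (log2 fold change 0.05 ± 0.29, adjusted p = 0.943).

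**Figure D4:**
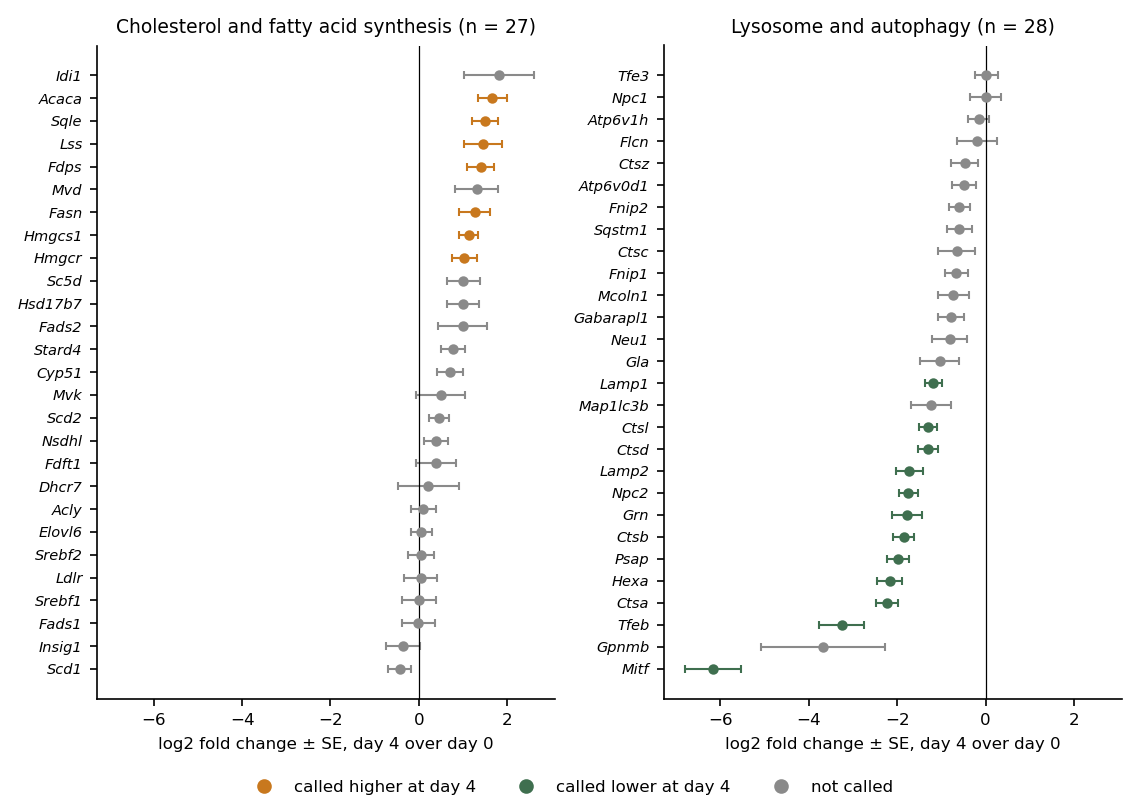
Log2 fold change of day 4 against day 0 with its SE for tested genes of the cholesterol and fatty acid synthesis list (27 of 29 drawn) and of the lysosome and autophagy list (28 of 30 drawn). The called lysosomal genes lie below 0, Mitf lowest at −6.17, and the called synthesis genes lie above 0, Acaca highest among those drawn at 1.67.

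Glycolysis genes moved both ways: of 25 glycolysis genes 5 rose and 4 fell, beside 7.73% higher and 7.51% lower over all genes. The falls were Hk1, Pfkp, Ldhb and Slc2a3, and the rises Ldha and, named after their values were seen, Pdk1, Pfkl, Pkm and Slc16a3. Hk1, a hexokinase bound to mitochondria, had 29.5, 17.9, 34.98 and 35.1 CPM at day 4, against 238, 134, 268 and 165 CPM at day 0. Pfkp, the platelet form of phosphofructokinase, had 80.4, 31.2, 52.1 and 58.4 CPM at day 4, against 562, 315, 633 and 358 CPM at day 0. Both fell without overlap (log2 fold change −2.79 ± 0.31, adjusted p = 0.0003003, and −3.07 ± 0.35, adjusted p = 0.000377). Ldha, the lactate dehydrogenase subunit that favours lactate, had 831, 1198, 1267 and 1799 CPM at day 4, against 489, 366, 462 and 233 CPM at day 0. Ldhb, the subunit that favours pyruvate, had 80.6, 76.3, 67.4 and 49 CPM at day 4, against 203, 161, 558 and 489 CPM at day 0. The subunits moved oppositely, Ldha by 1.70 ± 0.30 (adjusted p = 0.00477) and Ldhb by −2.17 ± 0.39 (adjusted p = 0.00494), in every library. The count of higher glycolysis genes was 2 without the E14 diff2 library of day 4 and 2 without the PGK diff3 library of day 0. Of 25 nuclear respiratory chain genes 2 fell, Cox6a1 and Cox6b2, close to the 7.51% lower over all genes. The falls were 0 without PGK diff2 or E14 diff2 of day 0 and without E14 diff2, E14 diff3 or PGK diff3 of day 4.

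Within threonine, glycine, betaine and serine metabolism 6 of 22 genes fell and 1 rose (Chdh, choline dehydrogenase, named after its values were seen), beside 7.73% higher and 7.51% lower over all genes. The falls were 4 without PGK diff3 of day 4. The rise was not called in 5 of the 8 leave-one-out fits, those without either diff2 library of E14, either PGK library of day 0 or PGK diff3 of day 4. Bhmt, Bhmt2 and Dmgdh, which pass methyl groups from betaine and dimethylglycine, are neighbours on chromosome 13 (93616675 to 93752833 together). Bhmt had 0, 0, 0.0736 and 0 CPM at day 4, against 4.87, 46.9, 9.03 and 26.4 CPM at day 0. Bhmt2 had 0.771, 1.05, 0.147 and 0 CPM at day 4, against 15.1, 33.5, 22.3 and 9.18 CPM at day 0. Dmgdh had 0.982, 2.603, 0.0736 and 0 CPM at day 4, against 31.01, 104, 78.1 and 103 CPM at day 0. The 3 neighbours were low in all day 4 libraries and varied several-fold among the day 0 libraries, and the log2 fold changes were −6.54 ± 0.93 for Dmgdh and −5.52 ± 0.91 for Bhmt2 (adjusted p = 0.00136 and 0.00303).

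The D-type cyclins moved in different directions. Ccnd2 had 25.8, 113, 35.8 and 65.3 CPM at day 4, against 0.406, 0.701, 0.597 and 0 CPM at day 0. Ccnd1 had 283, 333, 279 and 302 CPM at day 4, against 79.9, 55.6, 69.7 and 38.2 CPM at day 0. Ccnd3 had 74.97, 65.5, 68.5 and 66.3 CPM at day 4, against 361, 370.3, 266 and 334 CPM at day 0. All 3 partner CDK4 and CDK6 at the entry to S phase; Ccnd1 and Ccnd2 were higher and Ccnd3 lower in every day 4 library, with log2 fold changes of 2.31 ± 0.26, 6.93 ± 0.75 and −2.26 ± 0.21 (adjusted p = 0.000361, 0.000254 and 0.000113). Mybl2, a MYB-family factor of cycling cells, averaged 107 ± 65.6 CPM at day 4, against 567 ± 77.2 CPM at day 0 (adjusted p = 0.00242). Of the 30 cyclin, CDK inhibitor and replication genes 3 rose, the third being cyclin E1 (Ccne1), and 4 fell, the others being the inhibitor Cdkn1a and the pocket protein gene Rbl2, all 3 named after their values were seen. Over all genes 7.73% were higher and 7.51% lower. The falls were 2 without the E14 diff2 library of day 4 and 6 without E14 diff3 of day 0.

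Adhesion and matrix genes changed composition. Of 30 epithelial genes 16 rose, beside 7.73% higher over all genes, and 2 fell (Grhl3 and St14, named after their values were seen). The median of the list was 2.39. Of these genes 18 rose without the E14 diff3 library of day 0 and 11 at the lowest, without either PGK library of day 0 and without either diff3 library of day 4. The 2 falls, fewer than the 7.51% over all genes, became 0 without either E14 library of day 4 and 1 with the experiment within each line as a block. Esrp1, an epithelial splicing regulator, had 184, 147, 189.5 and 250.5 CPM at day 4, against 1.05, 1.12, 1.34 and 0.296 CPM at day 0. Mal2, a protein of apical transport, had 11.4, 26.1, 20.03 and 94.5 CPM at day 4, against 0, 0.187, 0.298 and 0 CPM at day 0. Both appeared at day 4 from levels near 0 in 2i (log2 fold change 7.48 ± 0.40, adjusted p = 1.26e-05, and 7.68 ± 0.99, adjusted p = 0.000759). Epcam averaged 325 ± 117 CPM at day 4, against 31.5 ± 7.3 CPM at day 0, and the tight junction gene Cldn6 165 ± 40.5 CPM at day 4, against 3.54 ± 2.62 CPM at day 0. E-cadherin, Cdh1, had 1246, 1020.0, 999.9 and 783 CPM at day 4, against 734, 867, 783 and 956 CPM at day 0, which overlapped (log2 fold change 0.28 ± 0.20, adjusted p = 0.4002). Of the mesenchymal genes tested, 3 of 11 rose (Mmp14, Zeb2 and Mmp2, the last named after its values were seen) and 2 fell (Fn1 and Zeb1), and 0 rose without either PGK library of day 0. Zeb1, a repressor of epithelial genes, averaged 2.88 ± 1.52 CPM at day 4, against 38.6 ± 17.2 CPM at day 0 (log2 fold change −3.78, adjusted p = 0.00262).

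Laminin chains were split. Lama1, the alpha chain of the first laminin of the embryo, had 5.33, 2.38, 4.27 and 0.495 CPM at day 4, against 196, 197, 469.7 and 367 CPM at day 0. Lamc1, the gamma chain, had 403, 279, 302 and 289 CPM at day 4, against 824, 1060.5, 906 and 1018 CPM at day 0. Lamb1, the beta chain, had 240.3, 267, 243 and 205 CPM at day 4, against 36.1, 38.9, 73.4 and 56.9 CPM at day 0. The alpha and gamma chains were lower and the beta chain higher in every day 4 library (log2 fold changes −6.34 ± 0.53, −1.58 ± 0.20 and 2.28 ± 0.27, adjusted p = 4.91e-05, 0.000728 and 0.000445). Nid1, nidogen, which links laminin to collagen IV, had 20.3, 9.41, 8.17 and 23.8 CPM at day 4, against 899.9, 838, 999.9 and 913 CPM at day 0 (log2 fold change −5.92 ± 0.40, adjusted p = 2.46e-05). Fn1, fibronectin, had 443, 668, 266 and 292 CPM at day 4, against 2181, 2681, 4530.0 and 5004 CPM at day 0 (log2 fold change −3.10 ± 0.39, adjusted p = 0.000699). Nid1 was down to 8.17 to 23.8 CPM at day 4, and Fn1 stayed well above 0 after the largest loss in mean CPM. Of 24 matrix and integrin genes 7 rose and 6 fell, beside 7.73% higher and 7.51% lower over all genes. Without the E14 diff2 library of day 4, 2 rose.

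Among the DNA methylation genes 6 of 18 were called. Dnmt3a, the other de novo methyltransferase, had 356, 183, 422 and 306 CPM at day 4, against 46.1, 18.98, 20.96 and 56.3 CPM at day 0. Tet2, which oxidises methylcytosine, had 14.4, 7.35, 7.36 and 21.3 CPM at day 4, against 161, 425, 305 and 425 CPM at day 0. Tet1, its relative, had 436, 346, 294 and 259 CPM at day 4, against 542, 928, 704 and 1059 CPM at day 0. Dnmt3a was higher and Tet2 and Tet1 lower in every day 4 library, with log2 fold changes of 3.16 ± 0.41, −4.75 ± 0.46 and −1.28 ± 0.26 (adjusted p = 0.000813, 0.000142 and 0.00975). Tet3, a further Tet gene, had 39.1 ± 6.01 CPM at day 4, against 15.6 ± 12.8 CPM at day 0, which was not called by edgeR (log2 fold change 1.73, adjusted p = 0.1302) and was higher in DESeq2 (adjusted p = 0.0395). Of the 18 genes 2 rose and 4 fell, Uhrf1 and Zbtb38 (named after their values were seen) besides Tet1 and Tet2; 2 fell without either E14 library of day 4 and without the PGK diff3 library of day 4. Of 34 other chromatin genes 4 rose and 2 fell, beside 7.73% higher and 7.51% lower over all genes, and 1 fell without PGK diff3 of day 0. Among them were Smarca1, an ISWI remodeller, at 49.98 ± 21.3 CPM at day 4, against 1.68 ± 0.735 CPM at day 0, and Hdac9, a class IIa deacetylase, at 10.9 ± 8.79 CPM at day 4, against 0.0996 ± 0.0926 CPM at day 0. Ehmt1, named after its values were seen, also rose and Kdm3a fell. Prdm16, a PR-domain factor, averaged 1.01 ± 0.812 CPM at day 4, against 20.9 ± 9.43 CPM at day 0, and Chd1, a remodeller of active chromatin, 348 ± 5.46 CPM at day 4, against 185 ± 20.6 CPM at day 0. Of 26 polycomb genes 0 rose and 3 fell, among them Mtf2 and Suz12, and 0 were called when the experiment within each line was fitted as a block, and likewise without E14 diff2 or PGK diff3 of day 0 and without E14 diff2 or PGK diff3 of day 4.

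Pairs of close relatives were set side by side. Among 26 pairs of paralogues, 8 had both members called, of which 5 moved the same way and 3 in opposite ways: Fgf5 against Fgf4, Sox3 against Sox2, and Ldha against Ldhb. Sox3, a SoxB1 factor like Sox2, had 27, 7.31, 29.2 and 90.6 CPM at day 4, against 2.03, 0.234, 0.224 and 0 CPM at day 0 (log2 fold change 5.74 ± 1.23, adjusted p = 0.0118), while Sox2 fell, as given above. Klf4, Klf2 and Klf5 fell, the call of Klf2 being lost without PGK diff3 of day 4 (adjusted p = 0.0575; 0.0903 with no low-count filter, the highest of the alternatives), and Klf5 was down to 21.6 ± 17.8 CPM at day 4, against 173 ± 51.2 CPM at day 0. Lin28a and Lin28b, whose proteins block let-7 microRNA maturation, both rose, Lin28a to 518 ± 56.8 CPM at day 4, against 23.5 ± 24.8 CPM at day 0, and Lin28b to 157 ± 59.4 CPM at day 4, against 13.7 ± 5.96 CPM at day 0. In other pairs 1 member passed in the main fit: Myc rose and Mycn had 178 ± 46.3 CPM at day 4, against 134 ± 101 CPM at day 0 (adjusted p = 0.4503). Without E14 diff3 of day 0 Mycn was also called higher (log2 fold change 1.05). In a further pair Spry4 rose and Spry2 had 64.9 ± 18.5 CPM at day 4, against 45.9 ± 20.02 CPM at day 0 (adjusted p = 0.413). The difference of change between 2 relatives was not tested.

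**Figure D5:**
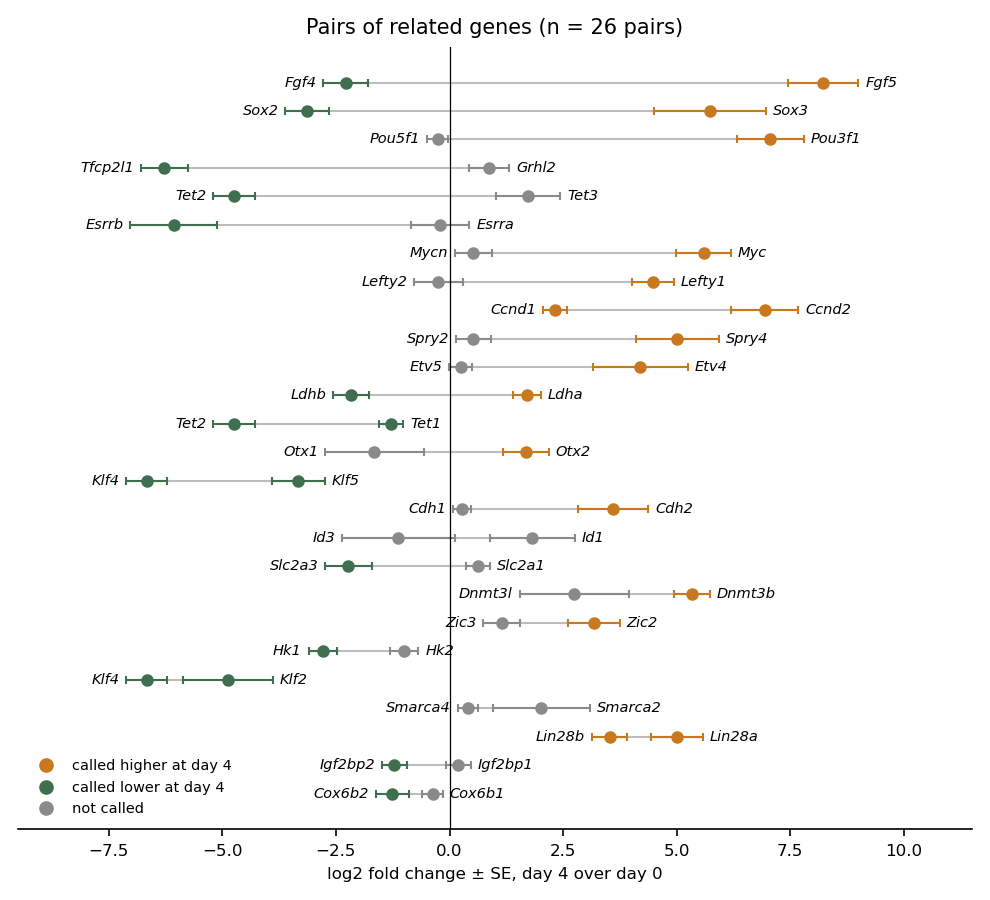
Log2 fold change of day 4 against day 0 with its SE for both members of 26 paralogue pairs. Fgf5 and Fgf4, Sox3 and Sox2, and Ldhb and Ldha lie on opposite sides of 0 with both members called, and the Lin28 genes lie together above 0.

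The largest rises among well-expressed genes without overlap were of diverse kinds. Vrtn, a gene tied to vertebral number in pigs, had 96.9, 124, 74 and 64.8 CPM at day 4, against 0.325, 0.0468, 0 and 0.296 CPM at day 0. Enpp2, which encodes autotaxin, the enzyme that makes lysophosphatidic acid, had 37.2, 19.2, 104 and 67.8 CPM at day 4, against 0.0812, 0, 0.149 and 0.296 CPM at day 0. Epha1, an Eph receptor kinase, had 113, 256, 109 and 58.9 CPM at day 4, against 0.0812, 0.1403, 0.597 and 0.296 CPM at day 0. These were close to 0 in all 4 libraries of day 0 and clearly present in all 4 of day 4 (log2 fold changes 9.48 ± 0.71, 9.04 ± 0.71 and 8.89 ± 0.74, adjusted p = 3e-05, 3.86e-05 and 4.91e-05). Trim67, a ubiquitin ligase, averaged 74.1 ± 23.3 CPM at day 4, against 0.156 ± 0.1802 CPM at day 0. The carbonic anhydrase Car4 averaged 91.8 ± 51.4 CPM at day 4, against 0.297 ± 0.228 CPM at day 0, and Crmp1, a mediator of semaphorin signals, 116 ± 34.5 CPM at day 4, against 0.304 ± 0.358 CPM at day 0. Cnn1, a calponin of smooth muscle, the noncoding RNA Miat and the zinc finger gene Zfp467 had at most 3 counts over the day 0 libraries, and averaged 29.8 ± 12.6, 31.1 ± 20.4 and 22.8 ± 5.04 CPM at day 4.

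The largest falls were again led by genes that were all but silent at day 4. Besides Trpm1, Spic, Jam2 and Bhmt, Serpinb1a, a protease inhibitor, had 0.2104, 0.0913, 0.147 and 0 CPM at day 4, against 38.4, 44.9, 26.6 and 43.2 CPM at day 0. Aspa, aspartoacylase, had 0.2104, 0.594, 0 and 0 CPM at day 4, against 17.9, 138, 11.4 and 33.8 CPM at day 0. Car8, a carbonic anhydrase relative without that activity, had 0.421, 0, 0 and 0.495 CPM at day 4, against 45.9, 35.95, 29.7 and 18.7 CPM at day 0. All 3 were lower in every day 4 library (log2 fold changes −8.07 ± 0.70, −7.97 ± 1.02 and −7.74 ± 1.17, adjusted p = 6.03e-05, 0.000728 and 0.00191). Accsl averaged 0.233 ± 0.27 CPM at day 4, against 71.8 ± 49.4 CPM at day 0. Crxos1, annotated on the strand opposite Crx, from which these counts may not separate it, had at most 3 counts over the day 4 libraries and averaged 61.5 ± 3.63 CPM at day 0.

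By difference in mean CPM, which depends on transcript length and abundance, other genes led. Spp1, the secreted phosphoprotein osteopontin, had 61.9, 24.9, 21.4 and 99 CPM at day 4, against 1108, 1136, 1168 and 1139 CPM at day 0. Apoe, a lipid carrier, had 311, 96.9, 126 and 121 CPM at day 4, against 744, 746, 1096 and 1961 CPM at day 0. Slc2a3, a glucose transporter, had 343, 120.0, 362 and 1523 CPM at day 4, against 2043, 1768, 2343 and 2671 CPM at day 0. With Fn1, Tfcp2l1 and Esrrb these were the 6 largest losses in mean CPM, and none overlapped (adjusted p = 0.000234 for Spp1, 0.00332 for Apoe and 0.0167 for Slc2a3). The call of Slc2a3 was lost without the PGK diff2 library of day 4 (adjusted p = 0.0752; 0.000723 to 0.0988 over the alternatives). Flna, the actin crosslinker filamin A, had 2086, 2138, 2009 and 1502 CPM at day 4, against 516, 534, 508 and 619 CPM at day 0, and Eif4g2, a translation factor, 2540.5, 2950.1, 2726 and 2616 CPM at day 4, against 1181, 1638, 1536 and 1274 CPM at day 0. They rose by 1.83 and 0.96 on the log2 scale (adjusted p = 0.000229 and 0.00646) and with Dnmt3b, Ncl, Hnrnpa2b1 and Ddx3x made the 6 largest gains in mean CPM. Ncl, which encodes nucleolin, averaged 3508 ± 370.3 CPM at day 4, against 1993 ± 372 CPM at day 0 (adjusted p = 0.0167; 0.000618 to 0.0665 over the alternatives, with the call lost without E14 diff2 or PGK diff3 of day 4 and without either PGK library of day 0).

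Markers of other cell types were read in the same libraries, and their part in the results above was not tested. Over all genes tested 7.73% were higher and 7.51% lower. Primitive streak markers (13 tested, Evx1 and Mixl1 higher and Kdr lower) summed to 23.3 to 928 CPM at day 4, against 34.2 to 67.2 CPM at day 0. The highest sum belonged to PGK diff3 of day 4, and neither rise was called without that library. Evx1 was also not called without E14 diff2 of day 4 or either PGK library of day 0. Mixl1 was also not called in limma-voom (adjusted p = 0.0568) or with the experiment within each line as a block (adjusted p = 0.0574). Kdr was not called in 6 of the 8 leave-one-out fits, those without any PGK library or either E14 library of day 4 (adjusted p = 0.0585 to 0.14). Definitive endoderm markers (11 tested, Cldn6 and Trh higher) summed to 314 to 473 CPM at day 4, against 52.9 to 137 CPM at day 0. Cldn6, given above as an epithelial gene, held 105 of the 314 CPM of PGK diff3 at day 4, and 9 of the 11 were not called. Neuroectoderm markers (8 tested, Nes higher) summed to 259 to 684 CPM at day 4, against 67.8 to 93.3 CPM at day 0, with Nes at 406 ± 188 CPM at day 4, against 32.1 ± 9.12 CPM at day 0. Extraembryonic endoderm markers (14 tested, Col4a1 and Serpinh1 higher, Apoe and Lama1 lower) summed to 463 to 688 CPM at day 4, against 1375 to 2634 CPM at day 0. Both rises were lost without either E14 library of day 4, E14 diff2 or PGK diff3 of day 0, or PGK diff3 of day 4, and Serpinh1 also with the experiment within each line as a block (adjusted p = 0.0814). Trophoblast markers (8 tested, Gata2, Tfap2a and Tfap2c lower) summed to 8.91 to 224 CPM at day 4, against 118 to 296 CPM at day 0, where Gata2 had 2.17, 0.365, 0.368 and 0 CPM at day 4, against 183, 16.5, 11.6 and 38.5 CPM at day 0. The 224 CPM belonged to PGK diff3, whose trophoblast sum was 166 CPM at day 0, while the sum fell in each other pair. Of the 8 trophoblast genes 5 were not called. Of the trophoblast falls 1 was called with the experiment within each line as a block. Fibroblast and feeder markers (12 tested, Acta2, Dcn, Fbn1 and Tagln higher) summed to 132 to 246 CPM at day 4, against 9.48 to 84.5 CPM at day 0. Tagln averaged 109 ± 35.1 CPM at day 4, against 0.805 ± 0.538 CPM at day 0, and Dcn was at 0 in all 4 libraries of day 0 and Lum in all 4 of day 4. Of the 4 rises those of Dcn and Fbn1 were lost with the experiment within each line as a block (adjusted p = 0.072 and 0.0725), and 2 rises were called without either E14 library of day 4, E14 diff2 or either PGK library of day 0, or PGK diff3 of day 4. Blood and endothelial markers (7 tested, Pecam1 lower) summed to 16.4 to 63.1 CPM at day 4, against 129 to 298 CPM at day 0, with Lyz2 at 0 in all 8 libraries and Ptprc in all 4 of day 0. At day 0 the sum was carried by Pecam1, which naive cells also express, at 10.5 ± 14.2 CPM at day 4, against 169.6 ± 76.3 CPM at day 0. At day 4 Pecam1 had 31.7 of the 63.1 CPM of PGK diff2, its highest library of that day, and other markers held the rest.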

How the data were processed

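Per the labels, Trizol-extracted, DNase-treated RNA was made into stranded libraries. The submitters' processing notes name CASAVA 1.8.2, Cuffdiff, DESeq2 and GRCm38 (mm10) with no role; how reads were aligned, against which annotation and whether strand entered the counting is not given in the sources used here. The authors deposited raw counts per gene, a signal of counts divided by size factors, and variance-stabilized log2 values; the counts alone were used. Both tables have 23361 entries, and 27 of them carry a date in place of a gene name.

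The 8 day 4 and day 0 libraries were fitted with edgeR 4.0.16 in R 4.3.3: counts as deposited, filterByExpr with a minimum count of 10, TMM factors (0.9736 to 1.022), robust quasi-likelihood tests of day with line as a term (5 residual degrees of freedom), and Benjamini-Hochberg adjustment over the 14226 genes tested. Calls are at an adjusted p under 0.05, and every adjusted p in the text comes from this fit unless another is named. Changes within a line and their difference, coded PGK minus E14, came from a fit of 4 group means with 4 residual degrees of freedom. DESeq2 1.42.0 and limma-voom (limma 3.58.1) were alternatives. The scripts were tested on simulated data. CPM uses the library total, and an SD is over 4 libraries. CPM is not scaled by gene length, so that ranks by mean CPM and sums over markers also depend on length. A total of 3 counts corresponds to 0.888 CPM in E14 diff3 of day 0, 1.48 CPM in E14 diff3 of day 4 and 0.137 to 0.244 CPM in the others, and it covers counting error only. Genes with at most 3 counts over the libraries of a day are given as levels.

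The experiment number pairs the libraries, per the labels. Deviations of the diff2 library from its group mean correlated across genes between day 4 and day 0 with r = 0.415 in PGK and 0.176 in E14, and between the lines with r = 0.521 at day 4 and 0.291 at day 0. The experiment as a replicate block is an alternative.

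The markers, the 41 gene lists and the 26 paralogue pairs were chosen with earlier results of these data known, and no list was tested as a list. Genes were named by a rule: 10 reported always, up to 4 called members per list described, those with the smallest adjusted p, 10 rises and 10 falls of the largest fold change with a mean of at least 20 CPM in the higher day and no overlap, 6 with the smallest p for the line difference, 6 gains and 6 losses in mean CPM, and the paralogue pairs. Some genes that the rule names are given as names only, and some are not reported here. Coordinates are from GENCODE release M21 on GRCm38, matched by symbol for 21699 entries, by a RefSeq symbol for 211 and by a synonym for 1289, with 162 unmatched.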

Additional observations from a re-analysis of the deposited data

Results flagged for a closer look

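In groups of 4 libraries, 27 of 372 group and gene combinations, counting the number of genes with a count, had 1 library whose gap to the next was a larger part of the group's range than Dixon's test allows, where chance gives about 1 in 20. The E14 diff3 library of day 0 had 10152 genes with a count after thinning, the lowest of the day 0 libraries. The same library stood apart from the other day 0 libraries with 28.1 CPM of Ajuba, 164 CPM of Tfap2c, 30.2 CPM of Vldlr, 4.15 CPM of Zic2, and 0 CPM of Otx1 and Tagln. At its depth a total of 3 counts is 0.888 CPM. Of these genes Tfap2c and Vldlr were the highest of their day 0 group and Ajuba, Zic2 and the genes at 0 the lowest.

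The PGK diff3 library of day 4 stood above the other day 4 libraries in the primitive streak genes T (474 CPM), Mixl1 (83.5 CPM) and Evx1 (35.1 CPM), and in Zeb2 (10.8 CPM), and apart from them in Cldn6 (105 CPM). The PGK diff2 library of day 4 stood above the others in Apoe (311 CPM), Car4 (169 CPM), Dnmt3l (149 CPM), Sox2 (122 CPM), Pecam1 (31.7 CPM), Gata2 (2.17 CPM) and Khdc3 (0.631 CPM). Both PGK libraries are thus found among those set apart at day 4, in different genes. In E14 at day 4, the diff2 library was apart in Il6st (31.4 CPM) and Bhmt (0.0736 CPM, the others being at 0), and the diff3 library in Bnip3 (155 CPM).

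At day 0 the PGK diff2 library stood above the others in Gata2 (183 CPM) and Sox3 (2.03 CPM). Acta2 in E14 diff2 (0.149 CPM), and Cnn1 and Wnt8a in PGK diff2 (0.0812 CPM each), were set apart by at most 3 counts in 1 library, with the others at 0.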

How the results depend on the processing

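Beside 2169 calls, 1100 higher and 1069 lower, DESeq2 gave 3417 (1781 and 1636), a joint fit of all 20 libraries 4376 (2463 and 1913), the diff3 libraries alone 925 (433 and 492), a test against 2-fold 982 (543 and 439) and a threshold of 0.01 776 (359 and 417). Leaving out each library gave 1068 to 2913 calls, 537 to 1350 higher and 531 to 1563 lower. The count shared by both lines, judged on the remaining pairs only, was 1051 to 2886, beside 1969 on all pairs. For the shared count DESeq2 gave 3078 and the threshold of 0.01 769. With the experiment within each line as a replicate block 1947 were called and with the block across lines 2709. Within PGK, beside 453, DESeq2 called 1369, limma-voom 1381, the fit with no low-count filter 1030, that without both shallow libraries 1098 and the threshold of 0.01 164, with 113 to 1295 over the leave-one-out fits. Within E14, beside 827, DESeq2 called 2102, the fit with no filter 1479 and the threshold of 0.01 297, with 243 to 3517 over the leave-one-out fits. For the line difference, beside 0, DESeq2 called 52, the fit with no filter 64 and the leave-one-out fits 0 to 959. The causes were not tested. In every setting the calls shared with the 2169 had the same direction. Of 163 named genes called, 115 were called in all 15 alternatives for single genes, 48 lost the call in 1 or more, 19 of them under the block within line, and 0 reversed; 10 named genes not called gained a call. The median log2 fold change of all genes in E14 was 0.11, against 0.24 with limma-voom, 0.65 without E14 diff2 of day 0 and −0.13 without E14 diff2 of day 4. The depth of the E14 diff3 libraries limits what can be seen of genes below about 1 CPM in E14.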

Other observations

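Further gene groups were read in the same 8 libraries. Among 17 Eph receptors and ephrins, which signal between neighbouring cells, 3 rose (Epha1, Efnb2 and, named after its values were seen, Efna5) and 2 fell (Epha4 and Ephb3), with 1 fall without the E14 diff2 library of day 4; over all genes 7.73% were higher and 7.51% lower. Efnb2 had 83.7, 98.6, 37.9 and 94.05 CPM at day 4, against 4.38, 6.78, 2.76 and 1.19 CPM at day 0, and Epha4 had 6.59, 9.45, 3.24 and 13.4 CPM at day 4, against 144, 348, 198 and 241 CPM at day 0. Both moved without overlap, with log2 fold changes of 4.47 ± 0.48 and −4.90 ± 0.48 (SE; adjusted p = 0.000254 and 0.000159). Of 18 Hippo pathway genes and targets 3 rose (Ajuba, Cyr61 and, named after its values were seen, Amot) and 3 fell (Tead4, Wwtr1 and, named in the same way, Stk3). Of the falls 1 was called without either diff3 library of day 0, E14 diff2 of day 4 or either PGK library of day 4. Of the rises 1 was called without E14 diff2 or PGK diff3 of day 0 and without either diff3 library of day 4. Cyr61 lost its call in 10 of the 15 alternatives, among them the experiment within each line as a block (adjusted p = 0.0976) and limma-voom (adjusted p = 0.071), with adjusted p up to 0.143. Tead4, a DNA-binding partner of YAP that marks trophectoderm, had 4.28, 4.66, 1.55 and 2.48 CPM at day 4, against 79.5, 63.6, 91.2 and 147 CPM at day 0 (log2 fold change −4.86 ± 0.50, adjusted p = 0.000205). Ajuba, a LIM protein that holds back the LATS kinases, had 361, 235, 369.6 and 217 CPM at day 4, against 66.3, 66.95, 61.7 and 28.1 CPM at day 0 (log2 fold change 2.44 ± 0.32, adjusted p = 0.0008398).

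Beside the lists of this paragraph, 7.73% of all genes tested were higher and 7.51% lower. Among 27 imprinted genes 9 rose and 2 fell (Plagl1 and, named after its values were seen, Igf2r), and 7 to 10 rose when each library was left out. Magel2 averaged 16.8 ± 9.06 CPM at day 4, against 0.252 ± 0.193 CPM at day 0 (SD, n = 4 each), Snrpn 366 ± 100.3 CPM at day 4, against 67.8 ± 40.3 CPM at day 0, and Rian, a noncoding RNA of the Dlk1-Dio3 cluster, 604 ± 323 CPM at day 4, against 112 ± 48.6 CPM at day 0. Germ line genes went both ways, 8 lower and 4 higher of 27, the rises being Ddx4, Sycp3 and, named after their values were seen, Tdrd1 and Tdrkh. Ddx4, a germ cell RNA helicase, averaged 51.2 ± 7.21 CPM at day 4, against 8.68 ± 5.56 CPM at day 0, and Dazl, an RNA-binding protein gene, 6.83 ± 2.27 CPM at day 4, against 77.8 ± 47.6 CPM at day 0. The number of lower germ line genes was 3 without either PGK library of day 0, without E14 diff2 of day 0 and without PGK diff3 or E14 diff3 of day 4. Among 25 p53 targets and apoptosis regulators 3 rose and 1 fell, with 2 to 3 rises and 1 to 2 falls when each library was left out. Bcl2l11, which encodes the pro-apoptotic BIM, rose to 66.1 ± 9.93 CPM at day 4, against 17.2 ± 11.7 CPM at day 0 (adjusted p = 0.00939). Bcl2 also rose (log2 fold change 4.96, adjusted p = 0.0126), a call lost without PGK diff3 of day 4. Mdm4, a p53 inhibitor, fell to 112 ± 21.5 CPM at day 4, against 269 ± 71.3 CPM at day 0 (adjusted p = 0.00862). For 24 interferon and antigen presentation genes the shares over all genes were again 7.73% higher and 7.51% lower. Of these 24 genes 3 rose (Ifit2 and, named after their values were seen, Psmb8 and Psmb9) and 3 fell (Oas1a, Ifitm2 and Sp100). The rises were 0 without E14 diff2 or PGK diff3 of day 0 and without E14 diff2 or PGK diff3 of day 4, and 5 without E14 diff3 of day 0; the falls were 1 without PGK diff3 of day 0. Ifit2 was not called with the experiment within each line as a block (adjusted p = 0.0659). Oas1a averaged 1.54 ± 1.55 CPM at day 4, against 22.4 ± 6.4 CPM at day 0 (adjusted p = 0.00692).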
